A study of Mus musculus with 11 samples.

Results

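The comparison of E1 with E0 in mice that carried a control shRNA rests on 6 of the 11 samples of the series, 3 labelled shRNA-Ctrl E1 and 3 labelled shRNA-Ctrl E0. All 6 are ATAC-seq libraries from the dentate gyrus of C57BL/6 mice aged 8 weeks, each from 1 mouse, whose dentate gyrus had been infected with an adeno-associated virus (AAV) that expresses shRNA-Ctrl. The 2 groups share strain, tissue, age, virus and shRNA and differ in the state, E0 or E1. The deposited E0 lists are named as sham. What was done to reach E1, the time that had passed, the promoter of the shRNA and the cell types that took up the virus are not given in the sources used here. Another 5 samples, shRNA-cFos E0 (3) and shRNA-cFos E1 (2), carried an shRNA against c-Fos and serve below for comparison. Their lists helped to set the borders of the regions, and within these borders only the 6 shRNA-Ctrl libraries decided which regions count as changed.

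The dentate gyrus is the part of the hippocampus built mainly of granule neurons, which fire sparsely and are known for strong gene induction after activation. Activity switches on immediate early genes, among them c-Fos, which pairs with Jun proteins to form the transcription factor AP-1 and binds enhancers. ATAC-seq marks open chromatin by the insertion of adapters with a transposase, and the peak caller MACS reports stretches in which insertions pile up. In such lists the score of a peak follows how far it stands above background, and its width how far along the DNA the signal reaches. In tissue of mixed cells, an opening in fewer cells and a smaller opening per cell cannot be told apart.

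The 3 E0 lists held 25215, 28439 and 29554 peaks, and the 3 E1 lists 78377, 35517 and 75963. Read depth is unknown, so a long list cannot be told apart from a deep library. The names of the 2 longest lists, E1 replicates 1 and 3, also lack a word that the names of the other 4 carry. On chromosomes 1 to 19 and X, every list was therefore shortened to its highest-scoring peaks, as many as E0 replicate 1, the shortest list, held there. The lowest score kept was 50, 54.75 and 57.89 in E0, and 164.01, 69.47 and 174.94 in E1. The same rank thus stands for a higher score in E1, most of all in replicates 1 and 3. Scores were used only as ranks within a list, written as a percentile with 100 at the top. Overlapping peaks (by 1 bp or more) of all 11 shortened lists formed 59298 regions, of which 50422 were called in at least 1 of the 6 libraries. The coordinates are mm9, and no mm9 annotation was at hand. Regions are therefore named by position, and the labelled tissue was not checked against genes that mark it.

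Peak widths overlapped between the states. The median peak width was 438, 536 and 633 bp in the E0 libraries and 599, 587 and 723 bp in the E1 libraries. E0 replicate 3 exceeded E1 replicates 1 and 2. The means were 536 ± 97.5 bp (SD, n = 3) at E0 and 636 ± 75.3 bp (n = 3) at E1, a difference of 0.26 on the log2 scale that did not pass a two-sided exact permutation test (p = 0.3, where 0.1 is the smallest that 3 against 3 allow). The peaks kept covered 16.5 ± 2.64 Mb (SD, n = 3) at E0 and 19.1 ± 2.40 Mb (n = 3) at E1 (log2 difference 0.22, exact permutation p = 0.3). Leaving out 1 library moved the width difference between 0.12 (without E0 replicate 1) and 0.39 (without E0 replicate 3, exact permutation p = 0.1), and the coverage difference between 0.11 and 0.34 in the same leave-outs. Among the first 5000 peaks of a list the median width was 1033 ± 124 bp (SD, n = 3) at E0 and 1087 ± 129 bp (n = 3) at E1. Among the last 5000 it was 277, 380 and 444 bp at E0 and 456, 443 and 543 bp at E1, with E1 replicate 2 just below E0 replicate 3. With the lists as deposited the median width was instead smaller at E1 (log2 difference -0.19, p = 0.5 by exact permutation). It was then 438, 508 and 583 bp in the E0 and 370, 513 and 457 bp in the E1 libraries. In the shRNA-cFos mice the equal-length difference was 0.18, and the effects of the shRNA groups were 0.08 log2 units apart (p = 0.825 by exact permutation).

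**Figure D1:**
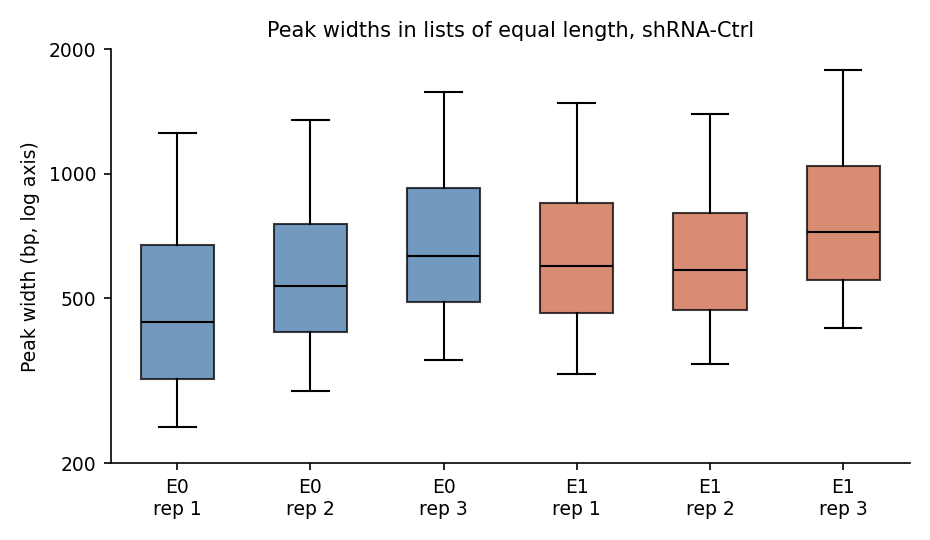
Peak width in bp (log axis) in the highest-scoring peaks (equal number) of each shRNA-Ctrl library, E0 in blue and E1 in orange. Boxes span the quartiles with the median as a line, and whiskers reach from the 5th to the 95th percentile of peaks. The medians run from 438 to 633 bp at E0 and from 587 to 723 bp at E1, and the groups overlap.

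Chromatin called open only at E1 was more common than chromatin called open only at E0. Of 50422 regions, 2080 (4.13%) had a peak in each E1 library but in no E0 library, and 683 (1.35%) showed the reverse. That gives 3.05 E1-only regions for each E0-only region. Single regions cannot be tested on presence, since 3 libraries against 3 allow no exact p under 0.1. The ratio was 2.41 with the 15000 highest-scoring peaks and 136 with the lists as deposited. It was 7.81 when a call needed peaks over 50% of the region, which left 332 E0-only regions. Without E0 replicate 1, 2 or 3 it was 1.62, 1.78 or 1.82. Without E1 replicate 1, 2 or 3 it was 3.13, 3.33 or 2.67. In a group short of 1 library a one-state region needed only 2 calls, so these ratios do not rest on equal criteria.

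The balance differed with the number of libraries that called a region. Regions called in 2 libraries of 1 state and in none of the other numbered 2809 at E1 and 2391 at E0, and those called in a single library 6887 at E1 and 11996 at E0. Because the lists are equally long, a region gained in 1 list displaces another. Regions called in more E1 than E0 libraries numbered 16621 (33.0%), against 19230 (38.1%) called in more E0 libraries. The E0 lists spent more of their peaks on regions that no other list of the 6 held. Such regions numbered 4126, 4382 and 3488 in the E0 libraries and 2445, 3024 and 1418 in the E1 libraries, so every E0 library had more of them than every E1 library. Another 10666 regions (21.2%) were called in all 6 libraries.

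**Figure D2:**
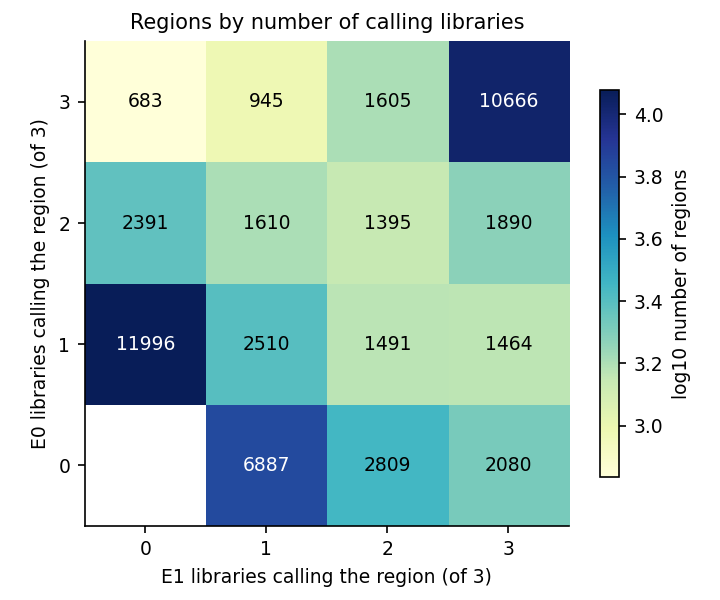
Number of regions by how many E1 libraries (x axis, of 3) and E0 libraries (y axis, of 3) called them, with colour for the log10 number. The lower right corner holds the 2080 E1-only regions, the upper left corner the 683 E0-only regions and the upper right corner the 10666 called in all 6.

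One-state regions were middling peaks and not the strongest of their lists. In E1 replicates 1, 2 and 3 the E1-only regions had a median score percentile of 49.2, 46.6 and 38.5. The E0-only regions ranked lower within their own lists, at 38.6, 35.6 and 34.4 in E0 replicates 1, 2 and 3. Regions called in all 6 libraries lay at medians between 74.95 and 78.3 in the libraries of both states. In the upper part of their own group's lists E1-only regions were more frequent. All 3 libraries placed 362 of the 2080 above the list median, and 23 of the 683 E0-only regions. The top 10% of the list, in all 3 libraries, held 1 E1-only region and 0 E0-only regions. Percentiles of other regions called in 3 of the 6 libraries were not compared here.

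One-state peaks were also narrower than shared ones. Their median width was 541.5, 530 and 581 bp for E1-only regions in the 3 E1 libraries and 377, 490 and 543 bp for E0-only regions in the 3 E0 libraries. In regions called in all 6 it was 696, 757 and 923 bp at E0 and 848, 791 and 1025 bp in the E1 libraries. Each library's one-state median lay below its median in shared regions, and followed the width of its whole list. Narrowness was not particular to one-state regions. The merged regions had a median length of 716 bp (E1-only) and 773 bp (E0-only), against 1374 bp for those called in all 6. It was 712 bp for regions called in 1 E0 and 2 E1 libraries, and 776.5 bp for 2 E0 and 1 E1.

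A one-state region can be absent from the other state or only rank below the shared length there. Of the 2080 E1-only regions, 1866 (89.7%, Wilson 95% interval 88.3 to 90.9, which covers counting error only) had no peak in any complete E0 list. Of the 683 E0-only regions, 39 (5.71%, interval 4.20 to 7.71) had no peak in any complete E1 list. E1 replicates 1, 2 and 3 held a lower-ranked peak in 517 (75.7%), 189 (27.7%) and 599 (87.7%) of the E0-only regions, and all 3 did in 138 (20.2%). Where present, those peaks had a median rank of 39331, 29592 and 36357 in lists of 78349, 35474 and 75908.

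These shares move with the number of peaks left to search. Beyond the length kept, the E1 lists held 53204, 10329 and 50763 further peaks, and the E0 lists 0, 3246 and 4374. E1-only regions had a lower-ranked peak in 0%, 3.85% and 6.83% in E0 replicates 1, 2 and 3. With lists of 15000 peaks, which leave more to search in every library, 48.6% of E1-only and 0.225% of E0-only regions had no peak in the complete lists of the other state. With E1 replicate 2 as the only E1 library, 91.8% of 6586 E1-only and 59.8% of 2102 E0-only regions had none. In each of these settings the E1 lists had more further peaks to search than the E0 lists, so the order of the 2 shares and list length cannot be told apart.

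**Figure D3:**
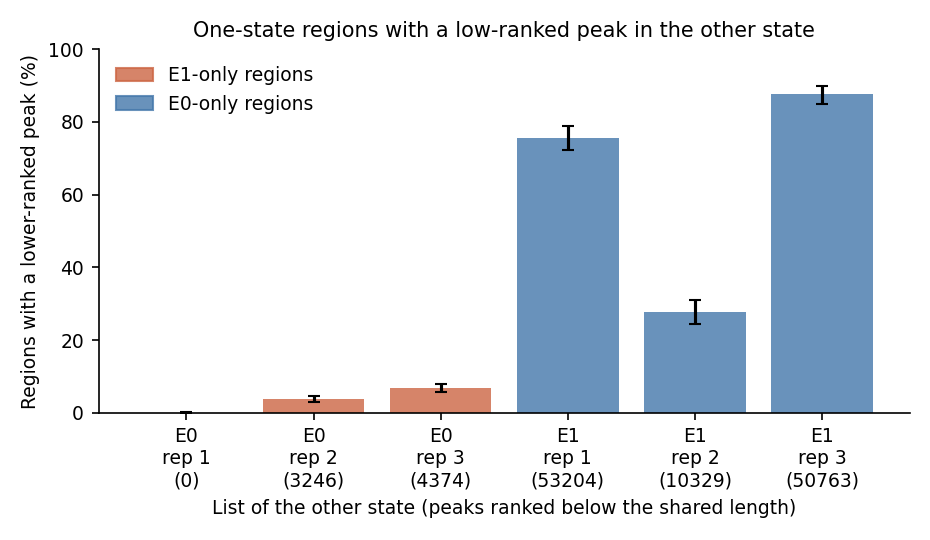
Percent of one-state regions that have a peak ranked below the length kept in each complete list of the other state, with Wilson 95% intervals for counting error. Orange bars are E1-only regions read in E0 lists and blue bars E0-only regions read in E1 lists, and the number of further peaks in each list stands in parentheses. The blue bars reach 75.7%, 27.7% and 87.7%, and the orange bars 0%, 3.85% and 6.83%.

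The E1-only region with the highest mean percentile (97.4 ± 0.925, SD, n = 3) was chr4:64903223-64904595. Its peak ranked 830, 386 and 728 in E1 replicates 1, 2 and 3, with widths of 1278, 852 and 1341 bp. No complete shRNA-Ctrl E0 list held a peak there, while 1 of the 3 shRNA-cFos E0 libraries and both shRNA-cFos E1 libraries called it. At chr2:138380652-138381646 the peak ranked 764, 715 and 3770 and was 794, 889 and 952 bp wide. This region was likewise without a peak in any complete shRNA-Ctrl E0 list. It was called in both shRNA-cFos E1 libraries and in 0 of the 3 shRNA-cFos E0 libraries. Of the 10 E1-only regions with the highest mean percentiles, it was the only one that no shRNA-cFos E0 library called. The others were called in 1 to 3 of those libraries, and all 10 in both shRNA-cFos E1 libraries. The same share over all regions was not computed, and many E0-only regions named below were called in both as well. These calls can therefore not be read as particular to E1-only regions. The regions on chromosomes 4 and 2 thus had no peak in the shRNA-Ctrl E0 lists and a high rank in all 3 shRNA-Ctrl E1 libraries.

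On chromosome 13 a pair of E1-only regions stood about 5 kb apart. The peak at chr13:111423470-111424704 ranked 1338, 1140.5 and 3027 at E1, and that at chr13:111417387-111418808 ranked 2117, 1906 and 3287. Each had a weak counterpart in 1 complete shRNA-Ctrl E0 list. It ranked 27286.5 in E0 replicate 2 for the former and 26673.5 in E0 replicate 3 for the latter. At chr1:12867464-12868542 the E1 peaks ranked 1377, 2039 and 2977, and E0 replicate 3 held one at rank 29451.5 of 29519. Ranks that are not whole come from ties. The other 5 of the 10 E1-only regions with the highest mean percentiles had no peak in a complete shRNA-Ctrl E0 list. They lay at chr18:15480217-15481322, chr13:36683545-36684514, chr6:22495938-22496926, chr16:60543963-60544814 and chr19:44948312-44949378, with mean percentiles from 92.4 down to 89.1.

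The E0-only regions with the highest percentiles began lower. The first, chr14:7469317-7470195, had a mean percentile of 80.9 ± 6.53 (SD, n = 3). It ranked 4044, 3679 and 6690 in E0 replicates 1, 2 and 3, and E1 replicate 3 held a peak there at rank 32779. The next, chr8:19923612-19930927, was the widest one-state region at 7316 bp. Its E0 peaks ranked 4448, 2072.5 and 13819 and were 6697, 3624 and 7162 bp wide. All 3 complete E1 lists held a peak in it, at ranks 51555.5, 25202 and 29928.5, the second of which missed the shared length narrowly. At chr15:25643162-25644351 the E0 peaks ranked 7174, 4971 and 8256, and E1 replicates 1 and 3 held peaks at 29022.5 and 28292. All 10 of the E0-only regions with the highest mean percentiles had a peak in at least 1 complete E1 list. The other 7 lay at chr6:105519000-105519689, chr13:38195225-38195861, chrX:120426732-120428284, chr5:115372227-115372671, chr1:98768018-98769344, chr14:3651092-3652015 and chr18:26081987-26082941, with mean percentiles from 72.9 down to 68.7. Of these 10, both shRNA-cFos E1 libraries called all but 4. The exceptions were chr8:19923612-19930927, chr15:25643162-25644351 and chr18:26081987-26082941, called in 1 of them, and chr6:105519000-105519689, called in 0.

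Gains and losses were scattered along the genome. The 2080 E1-only regions fell into 1940 of the 19036 windows of 100 kb that held any region, and 1805 of those windows held just 1. The 683 E0-only regions fell into 652 windows, 623 of them with 1. Windows with both kinds numbered 65, which is 3.35% of the windows with an E1-only region and 9.97% of those with an E0-only region. These shares are close to those among all windows, 3.43% with an E0-only and 10.2% with an E1-only region. The median distance to the nearest region called in all 6 libraries was 75.5 kb for E1-only and 64.9 kb for E0-only regions. It was 65.6 kb for other regions called in 3 of the 6 libraries and 71.7 kb for all other regions called in 1 to 5.

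On every one of the 20 chromosomes E1-only regions outnumbered E0-only regions. The E1-only share of a chromosome's regions ran from 3.03% on chromosome 11 to 5.51% on chromosome 18. The E0-only share ran from 0.408% on chromosome 19, with 4 regions, to 2.22% on chromosome X, with 37. The X chromosome accordingly had the lowest ratio, 1.78, and chromosome 19 the highest, 7.75, from the smallest count.

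A few loci held several one-state regions. The window from 37300001 to 37400000 on chromosome 13 held 4 E1-only regions among its 5. The number of regions called there was 0, 1 and 0 in the E0 libraries and 4, 4 and 4 in the E1 libraries. On chromosome 6, from 93200001 to 93300000, 3 of 4 regions were E1-only, with 0 calls in each E0 library and 4, 3 and 4 in the E1 libraries. Windows on chromosome 15 from 11000001 and on chromosome 16 from 31500001 also held 3 E1-only regions each. The former held 1 E0-only region as well, and its E0 libraries called 3, 3 and 4 regions and its E1 libraries 5, 5 and 4, so that window gained and lost peaks. A further 131 windows held 2 E1-only regions.

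Fewer windows held several E0-only regions, but these regions were also fewer, 683 against 2080 E1-only. On chromosome 1, from 134200001 to 134300000, 3 of 7 regions were E0-only, and the libraries called 4, 5 and 4 regions at E0 and 1, 0 and 1 at E1. Also on chromosome 1, the window from 137400001 to 137500000 held 2 E0-only regions. Its calls went from 3, 3 and 4 in the E0 libraries to 0 in each E1 library. On chromosome X, from 122600001 to 122700000, 3 of 12 regions were E0-only, with 7, 5 and 8 calls at E0 and 0, 3 and 0 at E1. In all, 27 windows held 2 E0-only regions, among them those on chromosome 1 from 137400001, from 94500001 and from 99700001. Over all windows, every E1 library called more regions than every E0 library in 989 (5.20%), and fewer in 484 (2.54%).

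Among regions called in all 6 libraries the order of scores differed on average more between states than within them, but not for every library. Spearman's correlation of ranks, a description across regions of pairs of lists, was 0.792 to 0.843 within E0 and 0.787 to 0.844 within E1. Across the 9 pairs of an E0 and an E1 library it was 0.706 to 0.812, with a mean of 0.740. The ranges overlap.

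No single region passed the test of rank. Ranks were turned into normal scores, which count steps near the top and the bottom of a list as larger than steps in the middle. Of 10661 regions tested with limma, 0 (0%) ranked higher and 0 (0%) lower at E1 at a Benjamini-Hochberg adjusted p under 0.05, and the smallest adjusted p was 0.103. An unadjusted p under 0.05 was found for 1425 regions (13.4%), 561 with a higher and 864 with a lower rank at E1. On the percentile scale, limma called 1 region higher and 2 lower. Every E1 library ranked above every E0 library in 799 regions (7.49%) and below in 1282 (12%). Full separation of 3 against 3 reaches only p = 0.1 by exact permutation, so some regions separate this way without any difference between states. The median difference of normal scores over all 10661 regions was -0.08. With ranks taken among the shared regions only it was -0.03. By library the median percentiles of shared regions overlapped, at 78.0, 77.6 and 78.3 in E0 and 74.95, 75.7 and 77.6 in E1.

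**Figure D4:**
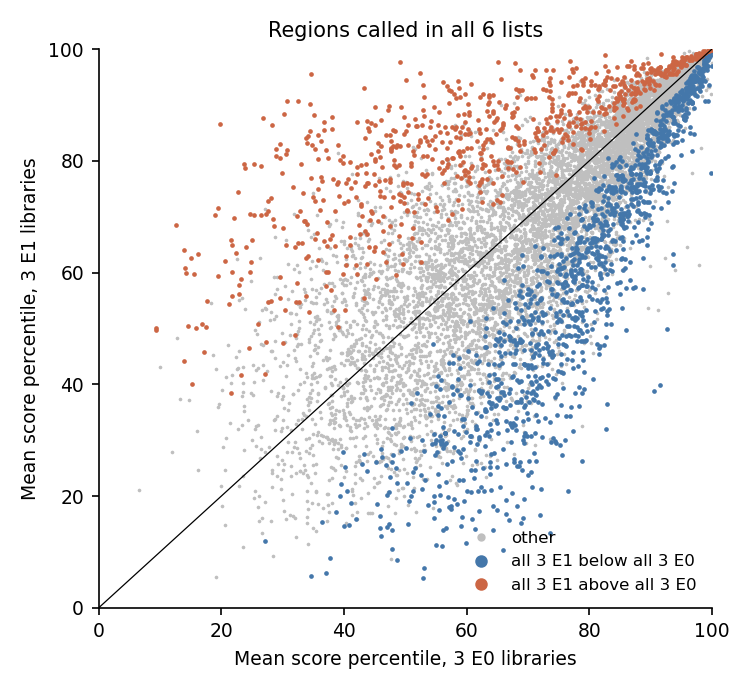
Mean score percentile in the 3 E0 libraries (x axis) and the 3 E1 libraries (y axis) of the regions called in all 6, with the line of equality. Orange points are the 799 regions where every E1 library ranked above every E0 library, blue points the 1282 where every one ranked below and grey points the others. Orange points reach from low E0 percentiles to high E1 percentiles, while most blue points start high at E0.

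The largest rank differences between the groups spanned a large part of the list. At chr1:84460536-84461899 the rank was 15868.5, 13478.5 and 19913.5 in the E0 libraries and 322, 1950 and 1070 in the E1 libraries. The groups were far apart, yet the difference of 2.20 normal-score units (SE 0.28) had an adjusted p of 0.108 with limma. At chr13:82098060-82098972 the E0 ranks were 17489, 17243.5 and 17467 and the E1 ranks 1518, 1802 and 3668. This region had the smallest adjusted p of all (0.103). A neighbourhood on chromosome 5 supplied 2 of the 10 largest upward differences, chr5:81212535-81213624 and chr5:81281322-81282046. Ranks at the latter were 14250, 22007.5 and 17874.5 at E0 and 1182, 5672 and 3412 at E1. The remaining 6 were chr12:56085344-56087707, chr13:111672222-111673619, chr14:71503605-71504357, chr14:108206291-108207365, chr10:105126209-105126918 and chr3:87349619-87350954. The 10 differences ran from 2.20 to 1.80.

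Downward differences were somewhat smaller. At chr2:181572241-181573001 the rank was 5713, 9212.5 and 4974 at E0 and 23851, 23801.5 and 17667 at E1 (difference -1.90, SE 0.32, adjusted p = 0.125 with limma). At chr4:26204171-26205002 it was 10042.5, 7805.5 and 7795 at E0 and 19728, 23598.5 and 24337.5 at E1 (adjusted p = 0.112 with limma). Of the 10 largest downward differences 4 lay on chromosome 4, the other ones at chr4:51683723-51684923, chr4:56101347-56102349 and chr4:68566712-68569330. The 5 not yet named were chr1:75517716-75518737, chr16:66650492-66651743, chr1:109377921-109378522, chr12:71008304-71010305 and chr5:37632376-37634142. Differences among the 10 ran from -1.97 to -1.67. In the E1 lists several of these stood near the end, such as ranks 22294, 24177 and 24940 at chr4:51683723-51684923.

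The shRNA-cFos libraries helped to set region borders but were not used to sort regions into these classes. They showed the same sides of the comparison at smaller size. Of the 799 regions above, 692 were called in all 5 shRNA-cFos libraries, and in 533 of those (77.0%) the mean percentile was higher at E1 than at E0. Their mean percentile was 77.3, 76.5 and 76.0 in the shRNA-cFos E0 libraries and 85.4 and 85.0 in the E1 libraries. Of the 1282 regions below, 1153 were called in all 5, and in 367 (31.8%) the mean percentile was higher at E1. That class stood at 78.8, 76.7 and 79.2 at shRNA-cFos E0 and at 72.0 and 73.5 at E1. Among the other 8580 regions 7866 were called in all 5, with 48.0% higher at E1, and the mean percentile was 80.4, 80.8 and 80.3 at shRNA-cFos E0 and 79.5 and 79.5 at E1. The shRNA-cFos E0 and E1 libraries did not overlap in any of the 3 classes. The median percentile differences were 5.33 for the upper class and -2.81 for the lower, against 19.02 and -16.6 in the mice that chose them, where the choice itself favours large differences. Of the one-state regions, 309 of 2080 E1-only (14.9%) and 79 of 683 E0-only (11.6%) were called in no shRNA-cFos library. The same share over all 50422 regions was not computed, nor were these counts split by shRNA-cFos state. These shares can therefore not be read as particular to one-state regions.

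The width test called a few shared regions, more of them wider than narrower at E1. The summed peak length of a region was taken as log2, less the median of its library over these regions. The median difference over regions was 0.14 (wider at E1) without this centring and -0.03 with it. Of 10666 regions, 8 (0.0750%) were wider and 2 (0.0188%) narrower at E1 at an adjusted p under 0.05 with limma. An unadjusted p under 0.05 was found for 851. Every E1 library was wider than every E0 library in 659 regions (6.18%) and narrower in 719 (6.74%). As for rank, such separation reaches only p = 0.1 by exact permutation, so these regions need not differ between the states. All 10 called regions had the same sign in each alternative that kept the regions, but fewer than 10 passed in most of them. Without centring 2 of the 10 passed, and likewise 2 without E0 replicate 3, without E1 replicate 2 or without E1 replicate 3. With E1 replicate 2 as the only E1 library 1 passed. Without E0 replicate 2 all 10 passed among 19.

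The clearest of the 8 was chr18:62482953-62486280. Its peak length was 411, 479 and 584 bp in the E0 libraries and 2372, 2592 and 2384 bp in the E1 libraries, a centred log2 difference of 2.16 (SE 0.20, adjusted p = 0.00146 with limma). Every E0 library held 1 peak there and every E1 library 2. Its best peak ranked 17152, 13744.5 and 14660.5 at E0 and 15272, 7810 and 15075.5 at E1, ranges that overlap. The region thus gained length and had 1 more peak in every E1 library, and its rank difference did not pass the test (adjusted p = 0.706 with limma).

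At chr12:56085344-56087707 width and rank moved together. The peak length was 406, 327 and 432 bp at E0 and 1575, 2285 and 2174 bp at E1 (log2 difference 2.20, SE 0.22, adjusted p = 0.00222 with limma), with 1 peak in every library. Its rank was 15050, 21575 and 23833.5 at E0 and 5611, 2645 and 1786 at E1. It is the only region among both the 10 largest upward rank differences and the width calls.

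Broad stretches appeared at 3 further regions, each over 4 kb long. At chr15:74497730-74504869 the single peak measured 609, 592 and 665 bp at E0 and 1641, 5268 and 5823 bp at E1, the largest width difference (log2 2.40, SE 0.37, adjusted p = 0.0345 with limma). Its rank did not follow, at 7523, 12911 and 9016.5 in the E0 libraries and 24986, 3701 and 19113.5 in the E1 libraries. At chr14:80167019-80172622 a single peak of 905, 1569 and 1874 bp at E0 measured 4614, 4031 and 5339 bp at E1. Its ranks were 2961, 2930 and 5122.5 at E0 and 13037, 5815.5 and 9314 at E1, so all E1 libraries placed this longer peak lower. At chr13:51940797-51945452 the E0 libraries held 1 peak of 817, 1224 and 1575 bp. The E1 libraries held 2, with summed lengths of 3121, 2893 and 3776 bp.

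The other wider regions were shorter. At chr18:74222857-74225832 the length was 534, 390 and 792 bp at E0 and 1660, 1869 and 2894 bp at E1. At chr9:21740741-21743367 it was 607, 465 and 600 bp at E0 and 1490, 2211 and 2011 bp at E1. The E1 lengths there are sums over 2, 1 and 2 peaks, against 1 peak in each E0 library. At chr19:48333401-48335962 it was 571, 486 and 634 bp at E0, in 1 peak each, and 1605, 1446 and 2236 bp at E1, in 2, 2 and 1 peaks. In each the shortest E1 length exceeded the longest E0 length.

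Both narrower regions lost length in all E1 libraries. At chr6:13785373-13790241 the length was 1560, 3251 and 3615 bp at E0 and 809, 803 and 739 bp at E1 (log2 difference -1.92, SE 0.26, adjusted p = 0.0196 with limma). E0 replicates 2 and 3 held 2 peaks there and every other library 1. At chr12:75384634-75386427 it was 1428, 1194 and 1530 bp at E0 and 624, 564 and 657 bp at E1 (log2 difference -1.33, SE 0.19, adjusted p = 0.0232 with limma). E0 replicate 1 held 2 peaks there and every other library 1. In both regions every E1 library also ranked below every E0 library.

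**Figure D5:**
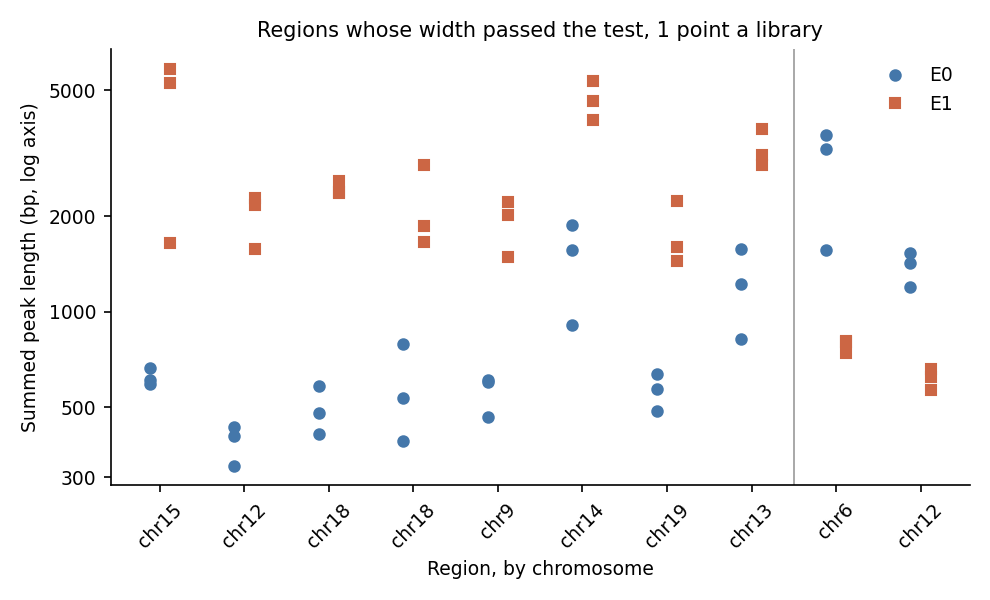
Summed peak length in bp (log axis) of the 10 regions whose width passed the test, labelled by chromosome, with 1 point for each library (E0 blue circles, E1 orange squares). Left of the grey line are the 8 wider regions and right of it the 2 narrower ones. In each region the E0 and E1 points do not overlap.

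Width and rank differences were related across shared regions but far from interchangeable. Pearson's r was 0.415 and Spearman's rho 0.355 across 10661 regions, which share libraries and are not independent. Of the 799 regions with every E1 library ranked above every E0 library, 186 (23.3%, and 28.2% of the 659 wider regions) were also wider in every E1 library. Of the 1282 ranked below, 199 (15.5%, and 27.7% of the 719 narrower regions) were also narrower. The opposite combinations held 28 regions that ranked above and were narrower, and 33 that ranked below and were wider. One of the latter was chr4:68566712-68569330, with ranks of 2546, 1313 and 2519 at E0 and 9369, 16148.5 and 19861 at E1. Its peak was 729, 1046 and 860 bp wide at E0 and 2089, 2351 and 2619 bp at E1, with an adjusted p for width of 0.0555 in limma.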

How the data were processed

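ATAC-seq peak lists of 11 libraries were used, of which 6 are compared here. Alignment with Bowtie2 to mm9 is named in the submitters' processing notes. Read filtering, read shifting and peak-caller settings are not stated in these sources. Each deposited list gives a position and a score per peak. The scale of the score is not stated, so it was used only for ranks.

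Lists were limited to chromosomes 1 to 19 and X and to the length of the shortest (ties in file order). Rank was that of the best peak in a region, with tied peaks averaged and ranks better than 7 set to 7, since the top score was shared by up to 7 peaks. This left 5 of 10666 regions constant. Ranks (as normal scores) and centred log2 widths were tested with limma 3.58.1 in R 4.3.3, without a replicate block, and library values by exact permutation. P-values measure the spread between mice. Named regions are the 10 E1-only and 10 E0-only ones with the highest mean percentile, the 10 largest rank differences each way, the 5 largest width calls each way, and 5 windows of 100 kb for each kind. With no rank call, regions were taken by size where all E1 lay beyond all E0. The other 3 wider regions were named after their values were seen, and other windows likewise. The comparison and its lists were chosen with earlier results of these data known. Python 3.11.15, numpy 2.4.6, pandas 2.3.3, scipy 1.17.1 and matplotlib 3.10.9 were used. Merging, calling and limma were tested on simulated data. Ranks among shared regions only, and E1 replicate 2 as the only E1 library, were alternatives chosen after seeing the data. The AP-1 motif and gene lists need an mm9 genome and were not used here.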

Additional observations from a re-analysis of the deposited data

How the results depend on the processing

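The E1-only and E0-only counts were 1072 and 444 with 15000 peaks, 7779 and 57 as deposited, 3544 and 1628 with 1 call allowed in the other group (ratio 2.18), and 6586 and 2102 with E1 replicate 2 alone. Leaving out 1 library gave 2534 to 3407 E1-only and 847 to 1573 E0-only regions, ratios of 1.62 to 3.33, and 88.0% to 94.3% and 6.93% to 11.7% without a peak in the complete lists of the other state. A group short of 1 library needed only 2 calls there for a one-state region. Ratios were 2.41 with 15000 peaks, 136 as deposited and 7.81 with peaks over 50% of a region (332 E0-only, 63.0% of E1-only without a peak). The shares without a peak were 48.6% and 0.225% with 15000 peaks, and 91.8% and 59.8% with E1 replicate 2 alone. Merging the 6 shRNA-Ctrl lists alone gave 2089 E1-only and 687 E0-only regions, with 6 wider and 2 narrower calls. The median width difference turned to -0.19 as deposited. Wider and narrower calls were 3 and 1 with 15000 peaks, 2 and 0 without centring, 1 and 0 with E1 replicate 2 alone, and 2 to 16 and 0 to 3 on leaving out 1 library. Rank calls were 1 higher and 2 lower on the percentile scale and 0 in every other alternative, where the smallest adjusted p lay between 0.0536 and 0.264 (0.0201 on the percentile scale). Same-numbered mice did not all deviate together (correlations for replicates 1, 2 and 3 of -0.03, 0.08 and 0.15 for rank and of -0.05, 0.12 and 0.14 for width). With 3 mice per group these correlations cannot decide whether the replicate numbers mark pairs. With the replicate block 0 regions were wider and 0 narrower (adjusted p of the 10 width calls 0.0642 to 0.208), 0 passed for rank, and the width and coverage differences stayed at 0.26 and 0.22 (exact p = 0.25, the smallest for 3 pairs). E0 replicates 2 and 3 correlated best with their own number and E0 replicate 1 did not. Beyond the values printed, every result kept its direction and its side of the threshold, and the cause of each move was not tested. The AP-1 motif comparison was not run for lack of an mm9 sequence. Unknown read depth limits each count.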
